A study of Mus musculus with 2 samples.

Results

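In the E15.5 pancreas, genes of the acinar cell, the cell type that makes the digestive enzymes, were mostly higher in the *Mafk*-Tg array than in the WT array, from a nuclease gene at -0.27 to a granule lectin gene at 0.71 on the log2 scale. The group consists of 32 named genes for digestive enzymes and for proteins of the zymogen granule and its supply line, with trypsinogens, *Reg* genes and serpins left out. Of these 32 genes, 29 had a probe set that names them alone, out of 19938 genes measured in this way, and 3 did not. *Klk1*, a kallikrein gene, and *Pnlip*, the gene of pancreatic triglyceride lipase, had no probe set naming them, and *Amy2a5*, a pancreatic amylase gene, was named only together with *Amy2a2* and *Amy2b*. Over the 29 genes the median log2 difference, *Mafk*-Tg minus WT, was 0.27, against -0.01 over all 19938 genes. The cutoff of the study, 1.2-fold, is a log2 step of 0.26. In *Mafk*-Tg 15 of the 29 genes were higher by this much or more, while 7.96% of all genes were. In the other direction 1 of the 29 was at least 1.2-fold lower, against 10.5% of all genes.

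The arrays hold total RNA of whole pancreata taken at E15.5 from WT embryos and from *Mafk*-Tg embryos, both kept on an ICR background. The transgene is a mouse MafK cDNA with a FLAG tag behind the rat insulin I promoter, first injected into BDF1 eggs, a promoter of insulin-producing cells, which the acinar cells described here are not. There is 1 array per genotype, although 3 pancreata per genotype were collected. The sources used here leave unsaid if these were pooled on it. No test is therefore possible, no spread between animals is known, and every difference given here is a difference between 2 arrays.

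Markers of the labelled tissue were present in both arrays. *Ptf1a*, the gene of the pancreatic factor PTF1A, read 8.49 in WT and 8.73 in *Mafk*-Tg on the log2 scale, and *Gcg*, the glucagon gene, 11.68 and 11.96. *Mafk* itself read 6.75 in WT and was higher by 0.25 in *Mafk*-Tg, under 1.2-fold. *Xist*, transcribed from the inactive X chromosome, had 4.40 and 11.30, and *Eif2s3y*, *Uty* and *Kdm5d* of the Y chromosome were lower in *Mafk*-Tg by 3.93 to 5.68 on the log2 scale, so the sex of the embryos and the genotype cannot be told apart. The highest value of either array was 14.01 and the medians were 6.01 and 6.01. An array value depends on its probes as well as on the RNA, so levels of different genes are used here to place a gene on the array scale. They are also summed over gene lists on the linear scale, where the brightest genes of a list weigh most.

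Acinar cells store inactive enzyme precursors in zymogen granules and release them into the ducts when cholecystokinin or acetylcholine reaches their receptors. During the secondary transition, the stage sampled here, acinar cells separate from the shared progenitors and enzyme genes are switched on. PTF1A drives this programme in a complex that binds an E-box next to a site for its partner RBPJ, which is replaced by RBPJL as the cells mature. MIST1, encoded by *Bhlha15*, then shapes the secretory apparatus.

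Promoter windows of RefSeq, which run from 250 bases before to 50 bases after a transcript start in GRCm38.p6, were found for 27 of the 32 genes. They were searched on both strands for letters that acinar factors bind. A gene was counted if any of its windows held a match, with 29 windows over the 27 genes. The share over all is one of single windows. The core of the RBPJ site, TGGGAA, occurred in the windows of 16 of the 27 genes, or 59.3%, and in 25.6% of all 32851 windows. The E-box CANNTG, a short and degenerate motif, occurred in 22 of the 27 genes and in 72.3% of all windows. An E-box and an RBPJ core starting 6 to 25 bases apart, a pairing chosen after the matches had been seen, occurred in *Aqp12*, *Cel*, *Cpa1*, *Ctrb1*, *Pdia2* and *Rbpjl*, which are 6 of 27 genes or 22.2%, and in 5.07% of all windows. The MIST1 E-box CATATG occurred in 0 of the 27 genes and in 3.91% of all windows. It is one form of CANNTG. The NR5A2 core CAAGGTCA occurred in 2 genes and in 1.56% of all windows, and its form CAAGGCCA in 4 genes and in 2.4%. TGCTGA, a part of the MAF recognition element, occurred in 8 of the 27 genes, or 29.6%, and in 19.5% of all windows. Matches are descriptions of sequence and no binding was measured in these cells. Genes that share a family or a cluster can share promoter sequence.

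The 250 bases upstream of the start are shown for 4 of the 6 genes that hold the pair, from the regulator *Rbpjl*, from *Ctrb1* and *Cpa1*, whose values lie near the top of the array scale, and from *Aqp12*, one of the genes with the largest differences. Capitals mark the paired E-boxes and RBPJ cores, the latter also as TTCCCA where it lies on the other strand.
Rbpjl, chr2:164402944-164403193, plus strand: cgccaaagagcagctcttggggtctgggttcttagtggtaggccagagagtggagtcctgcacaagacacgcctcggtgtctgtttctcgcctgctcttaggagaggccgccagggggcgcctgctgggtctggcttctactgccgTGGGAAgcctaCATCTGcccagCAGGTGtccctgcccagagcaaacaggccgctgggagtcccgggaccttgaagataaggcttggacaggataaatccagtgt
Ctrb1, chr8:111691011-111691260, minus strand: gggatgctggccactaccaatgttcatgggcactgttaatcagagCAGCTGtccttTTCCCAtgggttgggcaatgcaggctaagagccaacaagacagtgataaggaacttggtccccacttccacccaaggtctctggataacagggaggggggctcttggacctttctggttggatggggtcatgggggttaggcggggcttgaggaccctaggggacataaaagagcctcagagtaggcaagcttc
Cpa1, chr6:30638968-30639217, plus strand: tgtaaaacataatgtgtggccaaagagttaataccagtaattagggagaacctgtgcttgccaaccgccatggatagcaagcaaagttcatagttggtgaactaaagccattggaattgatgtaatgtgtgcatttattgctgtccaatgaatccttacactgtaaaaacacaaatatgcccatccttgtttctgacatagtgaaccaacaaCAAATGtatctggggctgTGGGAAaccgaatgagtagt
Aqp12, chr1:93006084-93006333, plus strand: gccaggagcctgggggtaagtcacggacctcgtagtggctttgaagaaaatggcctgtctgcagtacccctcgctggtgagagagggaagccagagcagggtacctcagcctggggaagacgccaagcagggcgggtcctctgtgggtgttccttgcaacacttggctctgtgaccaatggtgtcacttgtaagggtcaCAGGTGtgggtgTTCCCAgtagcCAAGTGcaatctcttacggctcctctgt
The pair starts 104 bases before the transcript start in *Rbpjl*, 205 bases before it in *Ctrb1*, 38 in *Cpa1* and 51 in *Aqp12*. The log2 differences of these 4 genes ranged from 0.03 in *Cpa1* to 0.55 in *Aqp12*, so the pair was found in genes of small and of large difference.

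The genes for the fluid and stimulus side of secretion had the highest median of the roles, 0.55 on the log2 scale. All 3 were past the cutoff, against 7.96% of all genes. *Aqp8*, a water channel gene of the acinar cell, read 8.29 in WT and 8.94 in *Mafk*-Tg, which is 0.65 or 1.57-fold higher. Of the 2390 genes whose mean level lay within 0.5 log2 of it, 0.209% had a difference at least as large. *Aqp12*, an aquaporin gene largely restricted to the pancreas, went from 7.64 to 8.19, a difference of 0.55. *Cckar*, the cholecystokinin receptor gene, went from 10.73 to 11.00. Its difference of 0.27 lay just past the cutoff, at 1.21-fold.

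The genes for protein folding and cargo transport in the endoplasmic reticulum (ER) lay close together, at a median of 0.42. All 3 were past the cutoff, against 7.96% of all genes. *Pdia2*, a protein disulphide isomerase gene of the pancreas, read 9.70 in WT and 10.17 in *Mafk*-Tg, or 0.48 more. *Erp27*, the gene of an ER protein that binds disulphide isomerases, went from 7.22 to 7.64, a difference of 0.42. *Tmed6*, a member of the p24 family of cargo receptors, went from 9.15 to 9.56, a difference of 0.41. These 3 genes thus ranged from 0.41 to 0.48, whereas the 6 serine protease genes ranged from -0.20 to 0.36.

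Of the 5 genes of zymogen granule proteins, 3 were at least 1.2-fold higher and 0 were lower by as much. Over all genes these shares were 7.96% and 10.5%. *Zg16*, the gene of a lectin that binds the granule membrane, had the largest difference of the 29 genes, from 6.88 in WT to 7.58 in *Mafk*-Tg, which is 0.71 or 1.63-fold. Among 3752 genes of similar level, 0.133% had a difference at least as large, and 12 of all genes at or above the median level had a larger one. *Sycn*, which encodes the granule protein syncollin, went from 11.02 to 11.35, a difference of 0.33. *Rab3d*, the gene of a GTPase on the granule surface, went from 8.55 to 8.82, a difference of 0.28. *Gp2*, the gene of the main glycoprotein of the granule membrane, and *Cuzd1*, which encodes a further granule membrane protein, had differences of -0.01 and 0.15. Both read 5.22 to 5.57, below the median of the arrays, and signals this dim carry a large part of background.

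Both transcription factor genes were higher, 1 of them past the cutoff, against 7.96% of all genes. *Bhlha15* read 9.07 in WT and 9.50 in *Mafk*-Tg, which is 0.42 or 1.34-fold higher. *Rbpjl* had 9.71 and 9.91, a difference of 0.20. Outside the group, 11 measured genes regulate acinar cells or their progenitors. Of these, 3 were at least 1.2-fold higher, 0 were lower and the median was 0.15. Over all genes 7.96% were higher and 10.5% lower by this much. *Foxa2*, an endoderm factor gene, had 0.40, *Prox1* 0.31 and *Gata4* 0.27, each also known from other cells of the pancreas. *Ptf1a* had 0.24, and *Nr5a2*, the gene of a nuclear receptor of acinar cells, had 0.15. *Rbpj* had -0.17, with 6.41 in WT and 6.25 in *Mafk*-Tg, and the E-protein genes *Tcf3* and *Tcf12*, whose products pair with PTF1A, had -0.18 and -0.15. The differences of *Ptf1a*, *Nr5a2*, *Rbpj*, *Tcf3* and *Tcf12* were all under 1.2-fold.

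**Figure D1:**
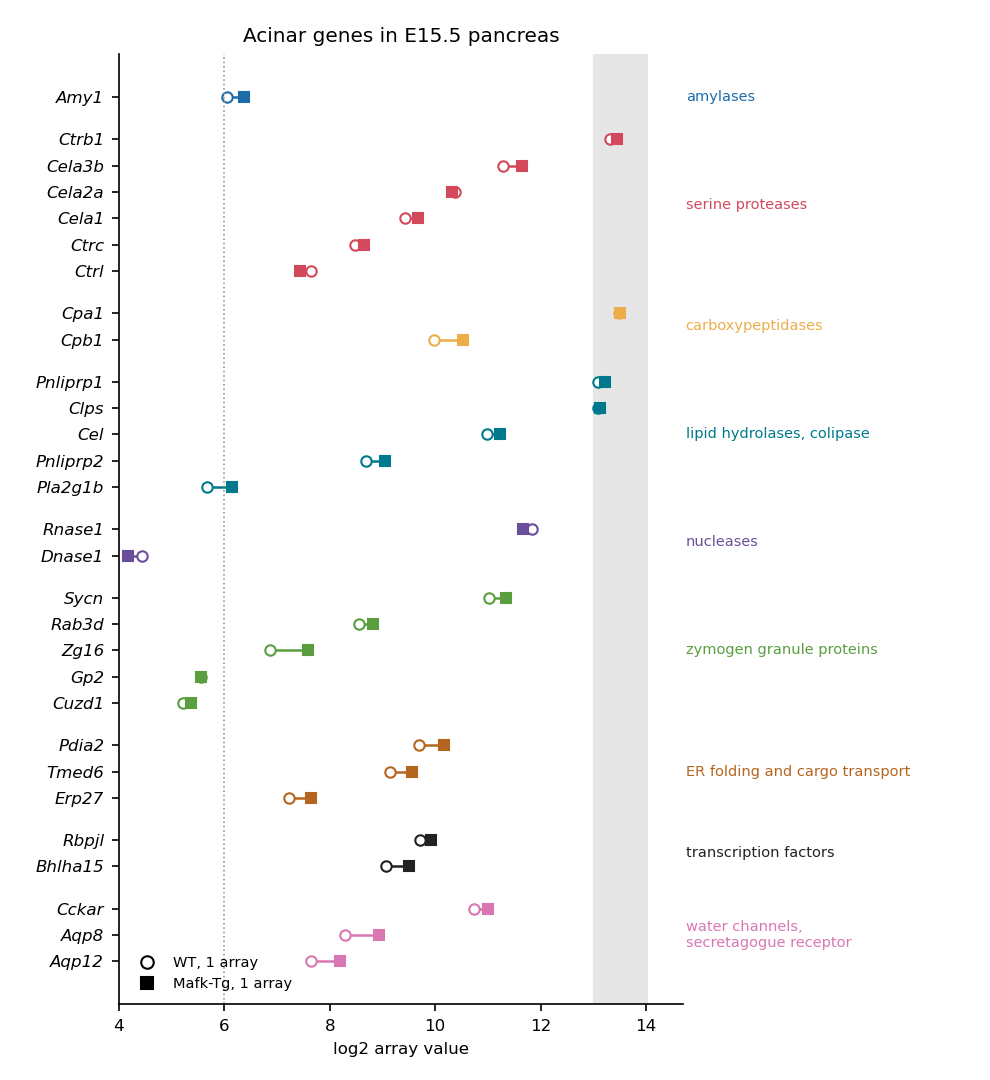
Log2 array values (x axis) of the 29 measured acinar genes, grouped by role, in WT (open circles) and *Mafk*-Tg (filled squares) with 1 array per genotype. The grey band is the range within 1 log2 of the highest value, 14.01, and the dotted line is the median level of all probe sets. *Zg16* and *Aqp8* show the widest gaps and *Cpa1*, inside the band, a gap of 0.03.

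The secreted enzymes were less uniform. Of 16 measured genes of enzymes and colipase, 5 were higher by the cutoff or more, 1 was lower and the median was 0.15. Of the 13 other genes of the group 10 were higher, 0 were lower and the median was 0.41. Over all genes 7.96% were higher and 10.5% lower by this much. This split was made after the values had been seen, and the difference between its sides was not tested. Genes below the median level and genes within 1 log2 of the highest value were then left out. The enzyme genes had a median of 0.25 with 4 of 10 higher, and the others had 0.42 with 10 of 11 higher. Of all genes at or above the median level, 5.58% were higher.

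Among the carboxypeptidases, which trim amino acids from the end of a protein, *Cpb1* had 9.98 in WT and 10.52 in *Mafk*-Tg. Its difference of 0.54 was the largest of any secreted enzyme, and 0.641% of 468 genes of similar level had one at least as large. *Cpa1* had 13.48 and 13.51, a difference of 0.03. *Cpa1* lies 0.52 log2 below the highest value of the arrays, *Cpb1* 3.76 below it.

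The serine proteases, which cut within proteins, had a median of 0.15. While 7.96% of all genes were past the cutoff upward, 1 of these 6 was. That gene was *Cela3b*, an elastase gene, with 11.29 in WT and 11.65 in *Mafk*-Tg, or 0.36 more. *Cela1*, a further elastase gene, went from 9.43 to 9.68, and its difference of 0.25, or 1.19-fold, fell just short. *Cela2a* had 10.38 and 10.32, a difference of -0.06. The chymotrypsin genes differed in sign too. *Ctrb1* had 13.32 and 13.45, a difference of 0.13 near the top of the scale, *Ctrc* had 8.49 and 8.65, a difference of 0.16, and *Ctrl*, which encodes a chymotrypsin-like protease, had 7.64 and 7.44, a difference of -0.20. *Cela2a* and *Ctrc* are next to each other on chromosome 4 in the RefSeq annotation of GRCm38.p6 with 0 genes between them, and *Ctrc* is listed there as a transcribed pseudogene, an annotation made on another strain than ICR.

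The lipid hydrolases and colipase were all above 0, with a median of 0.25. Of the 5 genes 2 were past the cutoff, against 7.96% of all genes. *Pla2g1b*, the gene of a secreted phospholipase, went from 5.68 to 6.15, a difference of 0.47 across the median level of the arrays. *Pnliprp2*, a gene of a lipase that also cuts galactolipids, went from 8.68 to 9.05, a difference of 0.37. *Cel*, the gene of the bile salt-activated lipase, had 10.98 and 11.24. Its difference of 0.25, or 1.19-fold, was under the cutoff. *Pnliprp1*, which lies directly beside *Pnliprp2* on chromosome 19, had 13.08 and 13.21, a difference of 0.13. *Clps*, the gene of colipase, the cofactor of pancreatic lipase, had 13.08 and 13.12, a difference of 0.04.

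The 2 nuclease genes were the only role with both genes below 0. *Rnase1*, the gene of pancreatic ribonuclease, read 11.83 in WT and 11.67 in *Mafk*-Tg. Its difference was -0.16, and 11.1% of 90 genes of similar level were as low or lower. *Dnase1*, the gene of a deoxyribonuclease, read 4.43 and 4.17, below the median level of the arrays. Its difference of -0.27 was the only one past 1.2-fold in that direction, and 16.6% of all genes below that median were lower by this much. Under quantile normalization, and under a loess fitted to the differences, 0 acinar genes were lower by 1.2-fold or more. There *Dnase1* stood at -0.25 and -0.24, just short of the cutoff. Counting the other genes below 0, which were *Cela2a*, *Ctrl* and *Gp2*, there were 5 of 29 with a negative difference. In all genes, 44.9% had a positive one.

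The amylases, which split starch, were higher in *Mafk*-Tg in every reading. *Amy1*, the gene of the salivary type, read 6.06 in WT and 6.36 in *Mafk*-Tg, or 0.31 more, close to the median level of the arrays. The pancreatic genes *Amy2a5*, *Amy2a2* and *Amy2b* share 6 probe sets and cannot be told apart. Of these, 4 had identical values of 13.12 and 13.39, 0.27 apart, so they count as 1 measurement. The others had 13.08 and 13.37, a difference of 0.29, and 12.45 and 12.73, a difference of 0.28. All 3 distinct readings were higher in *Mafk*-Tg by nearly the same amount.

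The other genes at the top of the scale differed less. With the mean of both arrays within 1 log2 of the highest value, or from 13.01 upward, lay *Cpa1*, *Ctrb1*, *Pnliprp1* and *Clps* of the 29 genes, with differences of 0.03 to 0.13 and a median of 0.08. *Clps*, at a mean of 13.10, lay just inside this range and *Rnase1*, at 11.75, was the first gene outside it. Over all probe sets, named or not, 58 lay in the range. The 5 pancreatic amylase probe sets among them, which hold 2 distinct readings, were at least 1.2-fold higher, while the 49 that belong to neither amylase nor the 4 acinar genes, with 47 distinct readings, had differences of -0.19 to 0.18 and 0 of them passed in either direction. Among genes with a probe set of their own, 8 lay in the range. The 4 that are not among the 29, *Rn7sk*, *Actb*, *Eef1a1* and *Serpina6*, had differences of -0.08 to 0.10. *Serpina6* is a serpin gene, and serpins were left out of the group by its rule, whichever cells express them. The robust SD of the difference shrank along the scale, from 0.24 over genes below the median level to 0.14 between 8 and 10. It was 0.13 between 10 and 12, so a 1.2-fold step is a wider departure at higher levels. In the top range it was 0.07, but over 8 genes only, and 4 of these are the acinar genes themselves. A signal near the top of an array can fall short of the RNA present, and whether it did so for these 4 genes was not tested.

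**Figure D2:**
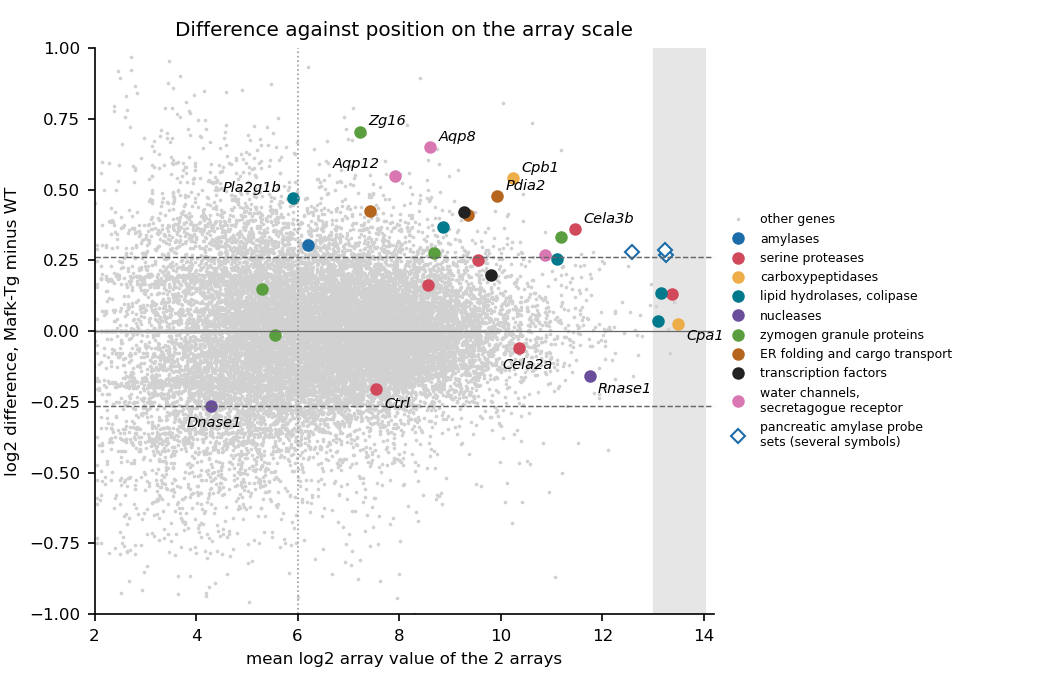
Log2 difference, *Mafk*-Tg minus WT (y axis), against the mean log2 array value of both arrays (x axis), with 1 array per genotype. Coloured points are the 29 acinar genes by role, open diamonds the 3 distinct readings of the pancreatic amylase probe sets and grey points the other genes, of which those beyond 1 in either direction or below a level of 2 are not drawn. Dashed lines mark 1.2-fold, the dotted line the median level of all probe sets and the grey band the range within 1 log2 of the highest value, where the diamonds lie at 0.27 and 0.29 and the 4 acinar genes at 0.03 to 0.13.

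The differences were then set against the position of each gene on the scale. Across the 29 genes Spearman's rho of the difference on the mean level was -0.19. Across the 25 genes further than 1 log2 below the highest value it was 0.01. With the genes below the median level left out as well, it was -0.31 across 21 genes. With only those dim genes left out, and the top range kept, it was -0.50. The value of rho thus depends on the dim genes. These are descriptions across genes of the same 2 arrays, which are not independent replicates. The 25 genes further than 1 log2 below the highest value had a median difference of 0.31. The 21 of them at or above the median level had 0.33, with 14 of 21 past the cutoff upward and 0 downward. Of all genes at or above that level, 5.58% and 5.87% were. The 4 genes below the median level had a median of 0.07, with 1 higher and 1 lower, against 11.1% and 16.6% of all genes there. From the median level to 8, 4 of 5 acinar genes were higher by the cutoff or more, against 6.11% of all genes in that range. From 8 to 10, 6 of 9 were higher, against 4.55%, and from 10 to 12, 4 of 7, against 5.89%. In each of these 3 ranges 0 acinar genes were lower by the cutoff, against 7.25%, 3.32% and 4.63% of all genes. Between 12 and 13.01 lay 0 acinar genes with a probe set of their own, and 3.23% of the 31 genes there were lower. At 1.5-fold, a log2 step of 0.58, 2 of the 29 genes were higher, *Zg16* and *Aqp8*, and 0 were lower, against 0.697% and 1.27% of all genes.

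**Figure D3:**
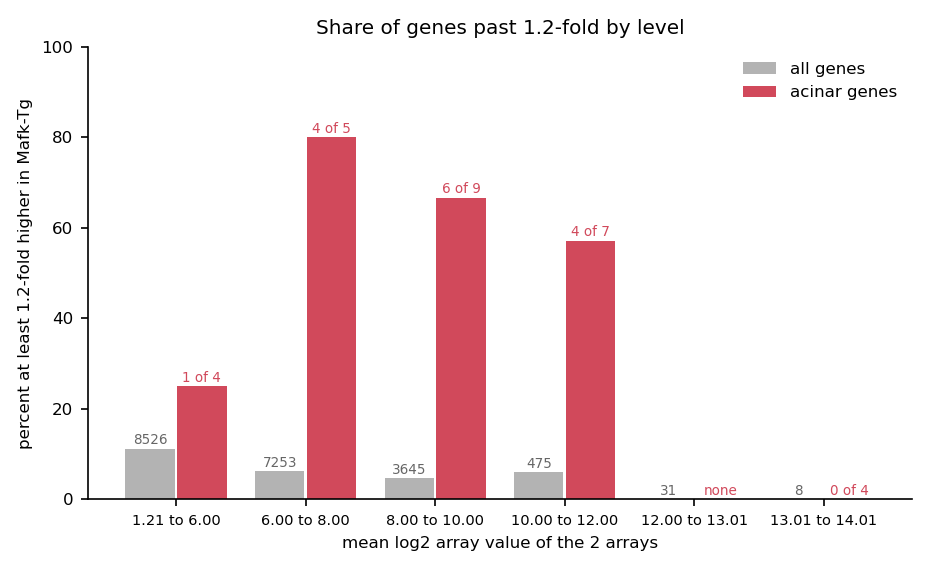
Percent of genes at least 1.2-fold higher in *Mafk*-Tg (y axis) by range of the mean log2 array value (x axis), for all genes (grey, with their number) and for the measured acinar genes (red, with the count), on 1 array per genotype. From the median level to 12 the red bars stand at 4 of 5, 6 of 9 and 4 of 7 and the grey ones at 4.55 to 6.11%, and in the top range both are at 0. The bars leave out the pancreatic amylase probe sets, which name several genes. In the top range 5 of these lie, all at least 1.2-fold higher.

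The receptors and the release machinery that act on the granule are shared with many cell types, and as a list they lay near 0. Of 18 measured genes, 3 were at least 1.2-fold higher, 1 was lower and the median was 0.04. Over all genes 7.96% were higher and 10.5% lower by this much. The muscarinic receptor genes *Chrm1* and *Chrm3* had 0.08 and 0.04, and *Itpr3*, which encodes a calcium release channel of acinar cells, had 0.06. *Vamp8*, the gene of the main SNARE protein of the zymogen granule, had 0.03 and *Stxbp2* had 0.01. *Rab27b*, which encodes a granule GTPase, had 0.31 and *Muc1*, the gene of an apical mucin, had 0.30. *Dmbt1*, the gene of a secreted scavenger receptor protein found in zymogen granules, stood apart at 5.37 in WT and 6.40 in *Mafk*-Tg. It was higher by 1.02, from a WT value below the median level. *Cckbr*, the gene of the gastrin receptor, had -0.47 with both values under 5.

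Trypsinogens, their inhibitor and *Reg* genes, the other secreted products of the acinar cell, were higher by the cutoff or more in 7 of 13 cases and lower in 2, and their median was 0.40. Over all genes 7.96% were higher and 10.5% lower by the cutoff. Of these 13 genes 6 lay below the median level. The trypsinogen genes *2210010C04Rik*, *Try5*, *Try10* and *Prss3* had 0.89, 0.81, 0.64 and 0.45, while *Try4* and *Prss2* had 0.24 and 0.19, under the cutoff. The highest of the 16 enzyme and colipase genes above was *Cpb1* at 0.54. *Reg1*, the gene of a secreted lectin-like protein, had 0.64 and *Spink1*, the trypsin inhibitor gene, 0.46. The 2 lower genes were *Reg2* at -0.39 and *Reg3g* at -0.32, both with values under 4. Trypsinogens are a family of similar sequences, and cross-hybridisation between them was not examined.

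Genes of other cell types differed between the arrays as well, and their part in the acinar differences was not tested. In RNA of a whole organ, more acinar cells and more RNA per acinar cell cannot be told apart. All 10 general epithelium genes had positive differences, of 0.07 to 0.20 with a median of 0.14 and 0 past 1.2-fold, among them *Grhl2* and *Cdh1* at 0.20. Their summed level was 12.73 in WT and 12.86 in *Mafk*-Tg on the log2 scale. Set against that epithelial median, a comparison chosen after the values had been seen, 9 of the 29 acinar genes were at least 1.2-fold higher, against 2.48% of all genes under the same shift, which were *Zg16*, *Aqp8*, *Aqp12*, *Cpb1*, *Pdia2*, *Pla2g1b*, *Erp27*, *Bhlha15* and *Tmed6*, and 3 were lower, *Dnase1*, *Ctrl* and *Rnase1*, against 28.8% of all genes. Without that shift, 7.96% of all genes were higher and 10.5% lower by the cutoff. Of 8 measured duct genes 1 was higher and 2 were lower, among them *Car2* at -0.55. The duct genes had a median of 0.15 and a summed level of 11.70 in WT and 11.73 in *Mafk*-Tg. Of 11 measured endocrine genes 6 were higher and 2 lower, from *Ins2* at -0.40 to *Chgb* at 0.73, with a median of 0.27 and a summed level of 12.57 and 12.78.

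Most genes of the leukocyte, erythroid, hepatocyte, mesenchyme and endothelium lists had negative differences. Over all genes 10.5% were lower and 7.96% higher by the cutoff. All 10 leukocyte genes were lower by the cutoff or more, with a median of -0.56, *Mpo* at -1.0 and summed levels of 12.47 (WT) and 11.77 (*Mafk*-Tg) on the log2 scale. The erythroid list had 7 of 8 genes lower, a median of -0.56, *Rhag* at -1.11 and a summed level of 11.30 and 10.75. The hepatocyte list had 6 of 9 genes lower and 1 higher, *Ttr* at 0.27, which islet cells also make. Its median was -0.47 and its summed level 12.23 and 11.96. Mesenchyme genes had a median of -0.11, 1 of 10 lower and 0 higher, and summed to 13.91 and 13.79. Endothelium genes had a median of -0.15, 1 of 8 lower and 0 higher, and summed to 11.80 and 11.66. In the leukocyte, mesenchyme and endothelium lists 0 genes lay below the median level of the arrays. The 8 measured reference genes had a median of 0.00, with 0 past 1.2-fold. Of 10 genes of gastric and intestinal epithelium, 7 lay below the median level, and their median was 0.02, with 1 higher and 1 lower. *Cym*, the chymosin gene, went from 7.17 to 10.51, a difference of 3.34, and *Gkn1*, a gastrokine gene, had -0.40.

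**Figure D4:**
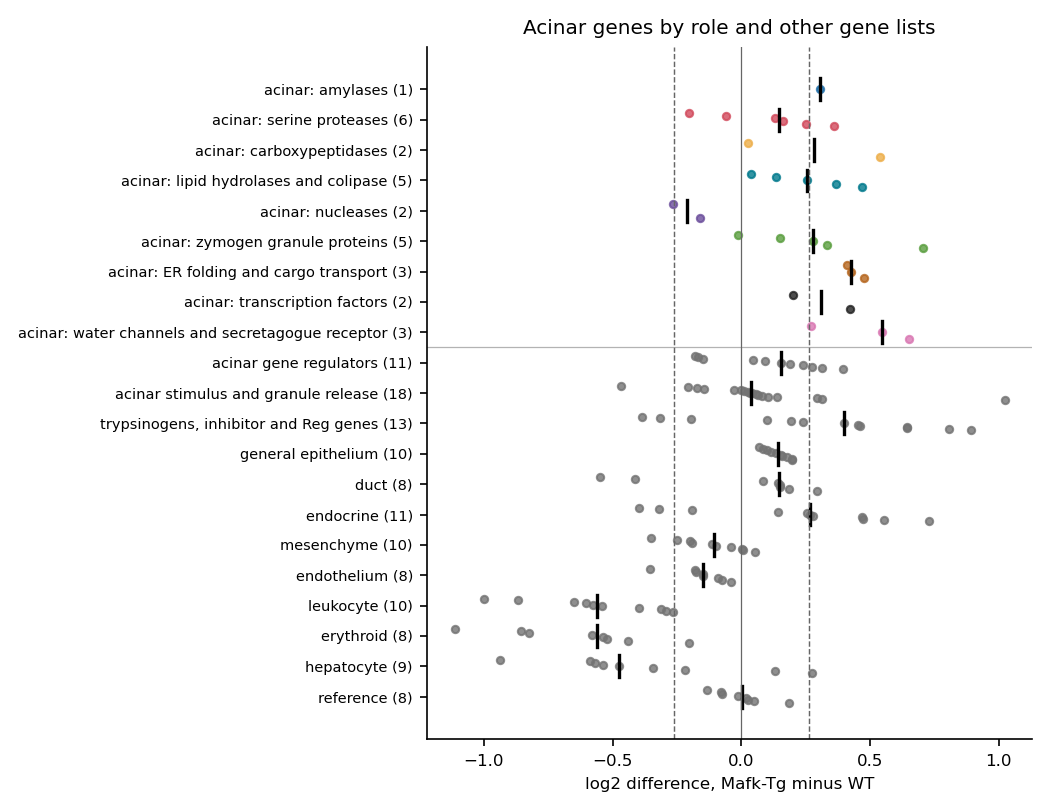
Log2 difference, *Mafk*-Tg minus WT (x axis), of each measured gene (points) and the median (black bars) for the acinar genes by role and for other gene lists, with the number of genes in parentheses. Dashed lines mark 1.2-fold, on 1 array per genotype. The genes of gastric and intestinal epithelium, the sex-linked genes and *Mafk* are not drawn. Water channel and receptor genes have the highest median at 0.55, nuclease genes lie below 0, and all general epithelium genes lie between 0.07 and 0.20.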

How the data were processed

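Affymetrix mouse gene arrays measured RNA of the whole pancreas at E15.5, 1 array for WT and 1 for *Mafk*-Tg. The deposited log2 values had been normalized by the authors with Expression Console of Affymetrix. The sources used here do not name its version or algorithm. Of 35556 probe sets, 21789 had 1 symbol in the platform gene table, 1621 had several and 12146 are unnamed here. A gene's value is the mean over its probe sets with exactly 1 symbol, and its difference is *Mafk*-Tg minus WT, with no further scaling. The cutoff was the study's 1.2-fold. With 1 array per genotype there is no test, and precision is limited by that number. Acinar genes within 1 log2 of the highest array value were described apart. The genes and lists were chosen with earlier results of these data known. All 29 acinar genes are named, and the rule for each other list was up to 3 of its largest differences either way. Further genes of those lists were chosen after their values had been seen.

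Alternatives were quantile normalization, equal medians, loess scaling with a span of 0.3, equal means of the reference genes, the brightest probe set, every probe set naming a gene, leaving out dim genes, 1.5-fold, and ranges of 0.5 and 2 log2 from the highest value. Differences relative to general epithelium genes are a later addition, chosen after seeing the data. A count was called unchanged within 1.5 times, a median within 0.05, rho within 0.1, and a single gene within the robust SD of the difference on its side of the median level. The gene values, the counts past a fold cutoff and the median, quantile and loess scalings were first tested on simulated data. Spearman's rho was tested on a small made-up set. The promoter search, the scaling to reference genes, the choices of probe set, the list sums and the epithelial comparison were not tested in this way. Promoter sequences, gene order and biotypes came from RefSeq, GRCm38.p6. Calculations used pandas 2.3.3 and numpy 2.4.6 in Python 3.11.15, the loess came from statsmodels 0.14.6 and the plots from matplotlib 3.10.9.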

Additional observations from a re-analysis of the deposited data

How the results depend on the processing

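The differences of single acinar genes moved by at most 0.04 on the log2 scale under the scalings and the choices of probe set, and 1, that of *Gp2*, changed sign, under the loess. The count of genes at least 1.2-fold higher stayed at 14 to 16 except at 1.5-fold, where it was 2, and relative to the general epithelium genes, where it was 9 (2.48% of all genes). It was 16 of 30 with every probe set naming a gene, which adds *Amy2a5*. With genes below the median level left out it was 14 of 25, and the other counts are of 29. The count of genes lower by the cutoff was 0 under quantile normalization, under the loess, at 1.5-fold and with genes below the median level left out. Relative to general epithelium it was 3 (28.8% of all genes). With the dim genes left out, Spearman's rho was -0.50, and the medians were 0.19 for lipid hydrolases and colipase, -0.16 for the nucleases and 0.33 for granule proteins. Without the genes within 1 log2 of the highest value rho was 0.0085. These values of rho and these medians were taken over the genes that remained. The counts of lower genes under quantile normalization, under the loess and at 1.5-fold were over all 29 genes. Relative to general epithelium the median of the 29 genes was 0.13. By role it was 0.16 for amylase, 0.0037 for serine proteases, 0.14 for carboxypeptidases, 0.11 for lipid hydrolases and colipase, -0.36 for nucleases, 0.13 for granule proteins, 0.28 for folding and transport, 0.17 for transcription factors and 0.40 for water channels and the receptor. All other counts and medians that were recomputed were unchanged within the limits set. A range of 0.5 log2 from the highest value held 0 of the acinar genes and gave no value. No paired analysis was possible because each genotype has 1 array. Signal over background limits *Pla2g1b*, *Gp2*, *Cuzd1* and *Dnase1*, whose mean lies below the median level, and no detection call was used.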
